A study of Homo sapiens with 12 samples.

Results

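The mitochondrially encoded genes of HK2 cells, an immortalised line from the human proximal tubule, were followed in all 12 libraries of the series. They were taken as every gene of the mitochondrial chromosome, with a symbol that begins MT-, and were matched by Ensembl identifier, which gave 37 of the 62703 identifiers in the deposited table. These are 13 protein-coding genes, 2 rRNA genes and 22 tRNA genes, and all 37 genes that GENCODE places on this chromosome were found. The study asked how FGF9, a secreted fibroblast growth factor, acts on tubular cells in high glucose. NG cells were kept in 5.5 mM glucose and given a control vector, and si-FGF9 cells were kept in 5.5 mM glucose and given a small interfering RNA against FGF9 by lipofection. HG cells were kept in 50 mM glucose, and HG + OE-FGF9 cells were kept in 50 mM glucose and given a viral vector for FGF9, a lentivirus by the labels and methods and an adenovirus by the study's account of its results. The labels do not say whether HG cells received a vector. The methods name a lipofection reagent for the control vector, the FGF9 vector and the siRNA together. No non-targeting siRNA is described, so that si-FGF9 and NG also differ in what was transfected, an siRNA or a vector. The methods and labels give glucose alone for NG, whereas the study's account of its results describes a mannitol control. Each group had 3 libraries, and the labels do not say whether these came from separate cultures, so that p-values measure only the spread between them.

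Mitochondrial DNA is a small circle whose strands are transcribed as long precursors, from which tRNAs, rRNAs and mRNAs are cut. Most of the mRNAs are then given poly(A) tails. Its mRNAs encode core subunits of respiratory complexes I, III and IV and of the ATP synthase, also called complex V, while the other subunits, the polymerase and all processing enzymes come from nuclear genes. Proximal tubule cells depend on these complexes for the energy of solute transport. MT-ATP8 and MT-ATP6 are read from one mRNA with overlapping frames, and so are MT-ND4L and MT-ND4.

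The sequences below are those of the 2 shortest protein-coding genes, whose values moved most between groups, and of the longest tRNA gene, which bears on the tRNAs listed at 0. They were read 5′ to 3′ from GENCODE transcripts on GRCh38, and capitals mark the bases shared with the following gene. MT-ATP8 lies at chrM:8366-8572 on the plus strand, and its last 46 bases, from 8527, are also the first bases of MT-ATP6. MT-ND4L lies at chrM:10470-10766 on the plus strand and shares its last 7 bases with MT-ND4. MT-TL1, the longest tRNA gene at 75 bases, lies at chrM:3230-3304 on the plus strand between MT-RNR2 and MT-ND1.
MT-ATP8: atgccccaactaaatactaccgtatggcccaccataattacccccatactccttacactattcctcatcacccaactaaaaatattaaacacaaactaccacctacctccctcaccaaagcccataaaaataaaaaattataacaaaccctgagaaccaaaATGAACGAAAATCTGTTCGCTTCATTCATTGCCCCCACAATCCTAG
MT-ND4L: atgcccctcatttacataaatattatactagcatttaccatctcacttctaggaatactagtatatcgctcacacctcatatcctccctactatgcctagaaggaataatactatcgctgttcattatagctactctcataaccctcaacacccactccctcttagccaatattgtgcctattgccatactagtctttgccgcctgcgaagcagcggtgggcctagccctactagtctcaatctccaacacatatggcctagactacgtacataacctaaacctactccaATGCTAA
MT-TL1: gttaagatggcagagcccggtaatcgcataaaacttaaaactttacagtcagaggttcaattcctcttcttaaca

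Values are TPM, transcripts per 1000000, which are scaled by gene length and to the same sum in every library, so that the depth of each library is unknown. A fall of mitochondrial RNA per cell and a rise of the other RNA cannot be told apart on this scale, nor can a lower level in every cell and a loss of it in some cells. FGF9 was listed at 0 in all 9 libraries of NG, HG and si-FGF9, so that the knockdown could not be checked here, and stood at 3.34, 4.03 and 3.82 TPM in the HG + OE-FGF9 libraries. The epithelial keratins KRT8, KRT18 and KRT19 were abundant. EPCAM stood at 19.9 to 31.3 TPM in NG, 4.54 to 16.1 in HG, 4.32 to 9.49 in HG + OE-FGF9 and 3.95 to 8.09 in si-FGF9. CDH1, the epithelial cadherin, was at 0.28 TPM or less in every library. Of 10 proximal tubule markers 4 had a mean of at least 1 TPM, among them GGT1 at 71.7 to 195 TPM and DPP4 at 3.70 to 30.9 TPM. LRP2, CUBN and SLC22A6, transporters and receptors of the mature proximal tubule, were at or near 0, and so were all 4 endothelial markers. Of 4 leukocyte markers CD68, a lysosomal protein, stood at 108 to 159 TPM and PTPRC at 0.07 or less, and of 6 fibroblast markers only COL1A1 had a mean of at least 1 TPM. The part of these markers in the values of the mitochondrial genes was not tested. Over the 15 mitochondrial genes above 0, HG library 3 differed from HG libraries 1 and 2 by a median of 0.69 and 0.84 on the log2 scale, and si-FGF9 library 3 from its companions by 0.82 and 0.76. Within the other pairs of one group this distance was at most 0.32, and it was 0.08 between HG + OE-FGF9 libraries 1 and 2. Limma calls on deposited TPM are therefore also given without HG library 3 or si-FGF9 library 3. Sums, shares and ratios are given with all libraries, many of them library by library.

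The 37 genes made up 13.9% ± 0.471 (SD, n = 3) of the summed TPM in NG, 13.6% ± 2.14 in HG, 13.9% ± 0.813 in HG + OE-FGF9, and 6.25% ± 2.04 in si-FGF9. The si-FGF9 libraries held 4.94%, 5.22% and 8.60%, all below the 13.5% to 14.4% of NG, and the plot of class shares by library shows this gap. The log2 difference was -1.20, with an exact two-sided permutation p of 0.1, the smallest that 3 libraries against 3 can give. The size of this gap depends on the scaling: after scaling by the median of ratios, taken over the nuclear genes of each library, the log2 difference was -0.15. HG and NG overlapped, with a log2 difference of -0.05 (exact permutation p = 0.8), and so did HG + OE-FGF9 and HG, at 0.05 (exact permutation p = 0.8).

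**Figure D1:**
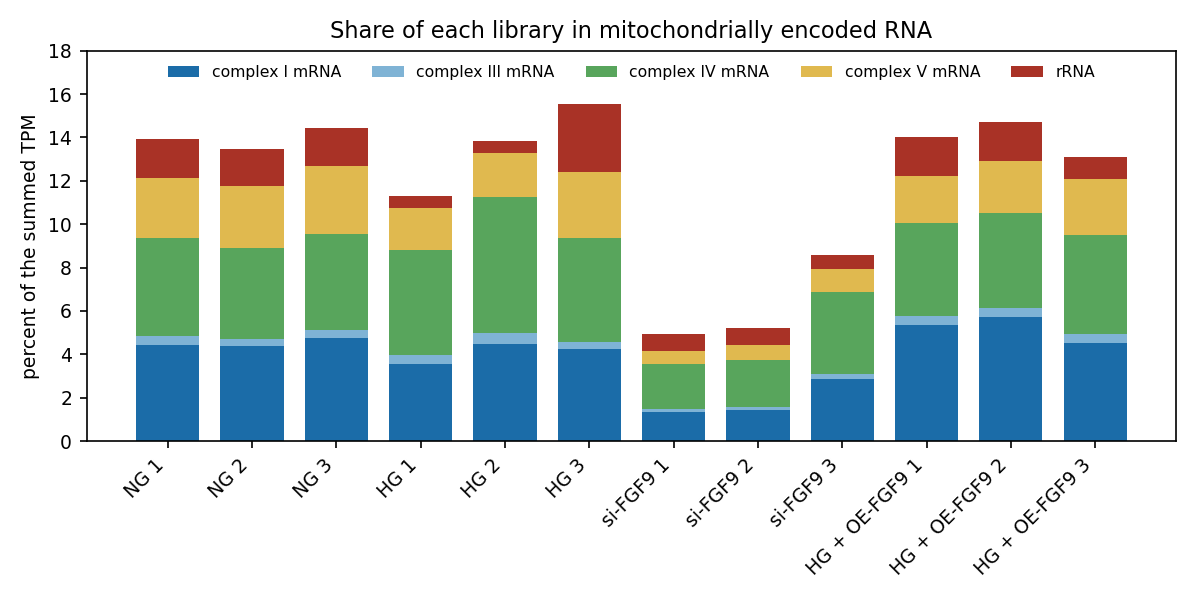
Stacked bars show, for each of the 12 libraries, the percent of the summed TPM in mitochondrial mRNAs of complexes I, III, IV and V and in the 2 mitochondrial rRNAs. The si-FGF9 bars reach 4.94% to 8.60%, and the NG bars 13.5% to 14.4%.

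Protein-coding RNA alone held 12.2% ± 0.487 in NG, 12.1% ± 1.28 in HG, 12.4% ± 0.433 in HG + OE-FGF9, and 5.49% ± 2.11 in si-FGF9 (SD, n = 3 each). The rRNAs held 1.79%, 1.75% and 1.72% in NG, but 0.554%, 0.581% and 3.17% in HG, so that HG library 3 lay on the other side of NG from its companions. In si-FGF9 they held 0.796%, 0.806% and 0.670%. In HG + OE-FGF9 they held 1.79%, 1.82% and 1.02%.

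All 22 tRNA genes were listed at 0 in every library. They are 59 to 75 bases long, and all 1301 genes of the table with an annotated length of up to 75 bases were also listed at 0 in the 12 libraries. The shortest gene with a value above 0 had 119 bases. The zeros of the tRNA genes are thus shared with every gene of their length, and no level of mitochondrial tRNA was read from them.

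**Figure D2:**
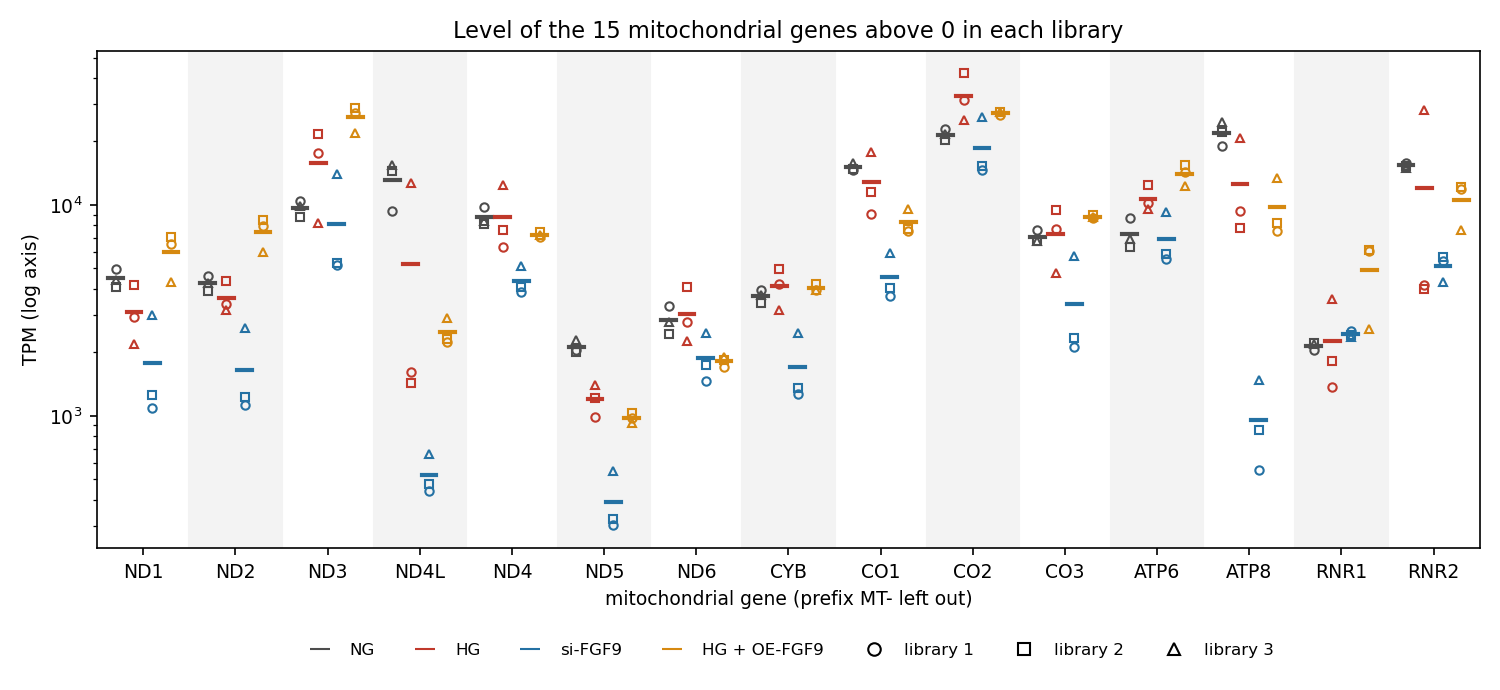
Each point is the TPM of one gene in one library on a log axis, with groups by colour, libraries by shape and group means as bars, for the 13 mRNAs by complex and the 2 rRNAs. MT-CO2 is at the top or near it in every group, MT-ND5 is the lowest or the next to lowest in all libraries, and MT-ATP8 and MT-ND4L fall furthest in si-FGF9.

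The 15 genes above 0 were among the most abundant of all genes, with 5 or 6 of them among the 10 highest in each NG, HG and HG + OE-FGF9 library and 1 or 2 in each si-FGF9 library. Per length, MT-CO2, a catalytic subunit of complex IV, ranked first or second of the 15 in every library. MT-ND5, the longest mitochondrial mRNA and a proton-pumping subunit of complex I, ranked 14 or 15 in every library. MT-ATP8, a small subunit of the ATP synthase, ranked 1 or 2 in NG and 13 in all 3 si-FGF9 libraries. These ranks come from TPM, and the length used by the authors for each gene is not given in the sources used here.

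Complex I, which takes electrons from NADH, has 7 mitochondrially encoded subunits. MT-ND4L stood at 9343, 14439 and 15400 TPM in NG, 1608, 1435 and 12773 in HG, 2239, 2323 and 2906 in HG + OE-FGF9, and 438, 477 and 658 in si-FGF9. Its si-FGF9 libraries lay far below all others, whereas HG library 3 stood at the NG level and HG libraries 1 and 2 below it. MT-ND5 stood at 2044, 2008 and 2279 TPM in NG, 989, 1219 and 1403 in HG, 978, 1036 and 929 in HG + OE-FGF9, and 302, 323 and 548 in si-FGF9. Every library of the other 3 groups was below the lowest NG library, and si-FGF9 was lowest. MT-ND2 stood at 4593, 3893 and 4272 TPM in NG, 3382, 4368 and 3167 in HG, 7923, 8523 and 5974 in HG + OE-FGF9, and 1124, 1233 and 2606 in si-FGF9. Its HG + OE-FGF9 libraries were above all others.

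MT-ND1 followed a like order, with 4096 to 4975 TPM in NG, 2193 to 4177 in HG, 4324 to 7031 in HG + OE-FGF9, and 1091 to 3021 in si-FGF9. MT-ND3, the third shortest of the mRNAs at 346 bases, stood at 10417, 8752 and 9934 TPM in NG and 17601, 21787 and 8205 in HG. In si-FGF9 it stood at 5209, 5324 and 13947 TPM, and in HG + OE-FGF9 at 27221, 28808 and 22014. HG library 3 and si-FGF9 library 3 each lay on the other side of NG from the rest of their group, and HG + OE-FGF9 was above all. MT-ND4 lay between 8137 and 9738 TPM in NG, 6311 and 12429 in HG, 7041 and 7427 in HG + OE-FGF9, and 3876 and 5158 in si-FGF9. MT-ND6, the only mRNA of the minus strand, stood at 3322, 2447 and 2790 TPM in NG, 2775, 4075 and 2272 in HG, 1703, 1839 and 1893 in HG + OE-FGF9, and 1456, 1734 and 2458 in si-FGF9. Here HG + OE-FGF9 was below every HG and NG library. Whether reads were counted by strand is not given in the sources used here, so that MT-ND6 reads and those of RNA from the opposite strand cannot be told apart.

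Cytochrome b, the mitochondrial subunit of complex III, is encoded by MT-CYB, which lay between 3431 and 3940 TPM in NG, 3179 and 4979 in HG, 3934 and 4202 in HG + OE-FGF9, and 1274 and 2473 in si-FGF9. Complex IV, cytochrome c oxidase, takes its 3 core subunits from MT-CO1, MT-CO2 and MT-CO3. MT-CO1 stood at 14632, 14834 and 15882 TPM in NG, 9072, 11516 and 17915 in HG, 7485, 7708 and 9584 in HG + OE-FGF9, and 3717, 4055 and 5925 in si-FGF9. HG library 3 was again above NG and its companions below. MT-CO2 stood at 22848, 20264 and 21599 TPM in NG, 31524, 42054 and 25192 in HG, 26760, 27480 and 27455 in HG + OE-FGF9, and 14713, 15262 and 26006 in si-FGF9. All HG libraries exceeded all NG libraries for this gene, and si-FGF9 fell on both sides of NG. MT-CO3 lay between 6728 and 7575 TPM in NG, 4771 and 9413 in HG, 8646 and 8929 in HG + OE-FGF9, and 2131 and 5720 in si-FGF9.

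The mitochondrial subunits of the ATP synthase are encoded by MT-ATP6, part of the proton channel, and MT-ATP8. MT-ATP6 stood at 8692, 6308 and 6872 TPM in NG, 10181, 12391 and 9554 in HG, 14400, 15461 and 12257 in HG + OE-FGF9, and 5535, 5826 and 9277 in si-FGF9. MT-ATP8 stood at 19075, 22085 and 24740 TPM in NG, 9309, 7750 and 20837 in HG, 7511, 8196 and 13473 in HG + OE-FGF9, and 556, 852 and 1473 in si-FGF9. MT-ATP6 was thus higher in HG and HG + OE-FGF9 than in NG in every library, while MT-ATP8 was lower than all of NG in every HG + OE-FGF9 and si-FGF9 library and in HG libraries 1 and 2. Since reads of the shared bases can be assigned to either gene, the split between MT-ATP8 and MT-ATP6, and to a lesser degree between MT-ND4L and MT-ND4, is uncertain.

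The rRNAs of the small and large mitochondrial ribosomal subunits, MT-RNR1 and MT-RNR2, did not move together. MT-RNR1 stood at 2059, 2204 and 2199 TPM in NG, 1369, 1810 and 3592 in HG, 6046, 6084 and 2568 in HG + OE-FGF9, and 2521, 2421 and 2366 in si-FGF9. MT-RNR2 stood at 15845, 15284 and 15041 TPM in NG, 4173, 3996 and 28092 in HG, 11853, 12103 and 7607 in HG + OE-FGF9, and 5442, 5640 and 4333 in si-FGF9. HG library 3 held the highest MT-RNR2 value of the series, and HG libraries 1 and 2 the lowest.

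In HG versus NG, 2 of the 15 tested members rose and 2 fell at an adjusted p under 0.05 in limma, fitted on log2(TPM + 1) over 14639 genes. All 13 mRNAs and both rRNAs passed the minimum of 1 TPM in 3 libraries, and no tRNA did. MT-CO2 rose by 0.58 on the log2 scale (SE 0.21, limma adjusted p = 0.0397) and MT-ATP6 by 0.56 (SE 0.20, limma adjusted p = 0.0331). MT-ND5 fell by 0.82 (SE 0.20, limma adjusted p = 0.00609) and MT-ND4L by 2.05 (SE 0.63, limma adjusted p = 0.0178). Of all genes tested, 8.53% rose and 40.5% fell in this comparison. At the study's criteria, a log2 fold change of at least 1 and an unadjusted p under 0.01, MT-ND4L alone was called, where 1.65% of all genes rose and 22.7% fell. The median log2 fold change was -0.06 over the 15 members and -0.39 over all genes tested.

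The calls of this comparison depended on HG library 3 and on the scaling. Calls over all genes were not counted in runs that left out 1 library, in this comparison or the others. The member counts of such runs therefore cannot be set against all genes. Without HG library 3, 8 members were called. MT-CO2, MT-ND3 and MT-ATP6 were then higher, and MT-ND5, MT-CO1, MT-RNR2, MT-ND4L and MT-ATP8 lower, with log2 fold changes of -3.07 for MT-ND4L, -1.91 for MT-RNR2 and -1.36 for MT-ATP8. MT-ND5 was the only member called with each of the 6 libraries left out in turn (limma adjusted p at most 0.0272). MT-CO2 was lost without any 1 library other than HG library 3, and MT-ATP6 and MT-ND4L each in 4 of these 6 runs, without NG library 2 or 3 or HG library 1 or 2 (limma adjusted p up to 0.17, 0.124 and 0.0834). With scaling by the median of ratios, MT-CO2 and MT-ATP6 were the members called, both higher, and MT-ND5 was at -0.30 (limma adjusted p = 0.354). With quantile normalization, MT-ND5, MT-ND4L and MT-ATP8 were called, all lower. With the correction for GC content, MT-CO2, MT-ATP6, MT-ND3 and MT-ND4 were called, all higher, and MT-ND5 was at -0.19 and MT-ND4L at -1.25 (limma adjusted p = 0.6 and 0.119). The median over all genes was 0.01, 0.03 and -0.02 after these scalings, in place of -0.39. Of all genes, 3019, 3019 and 2083 rose and 3323, 3284 and 2312 fell, in the same order of scalings.

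**Figure D3:**
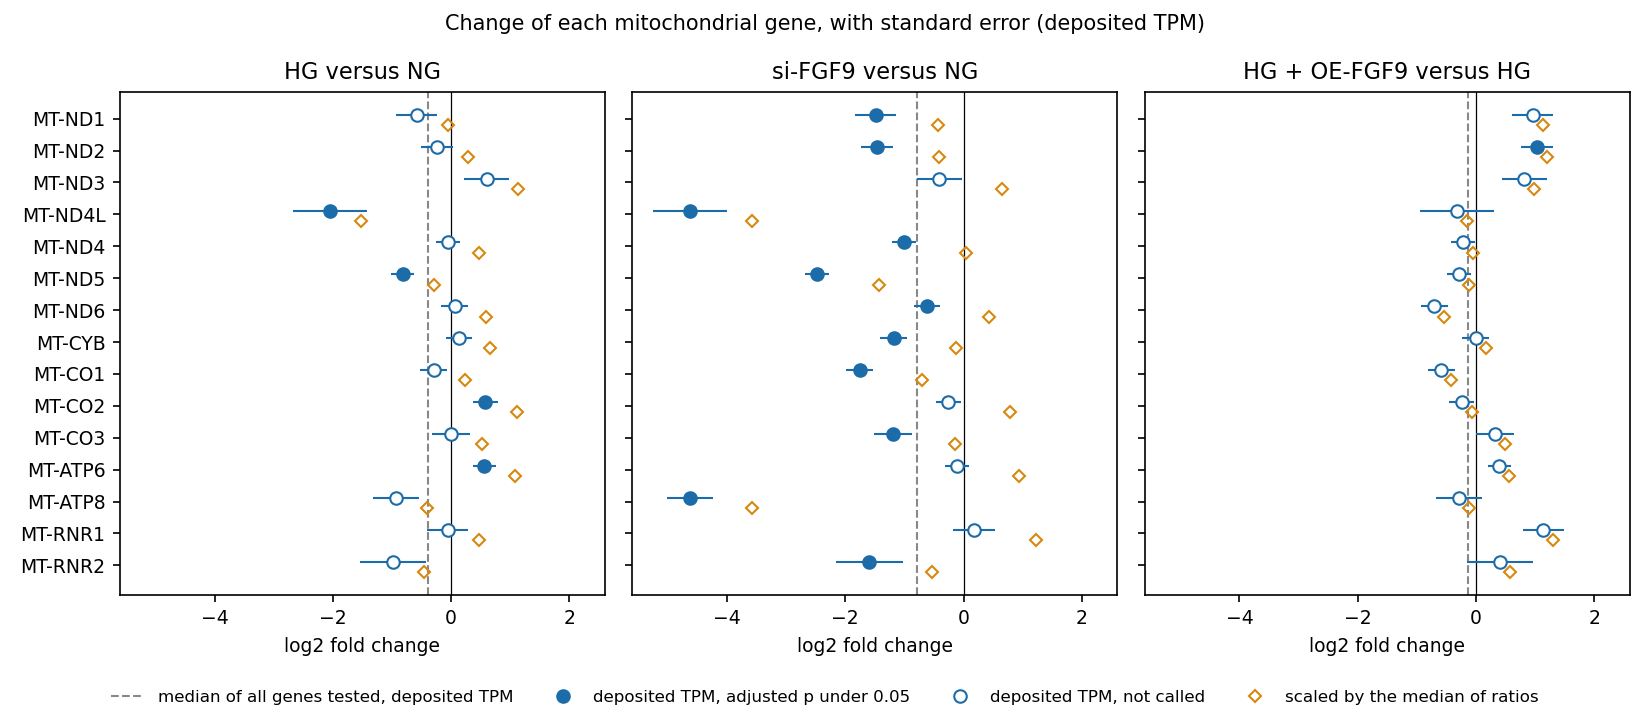
Circles with bars show the log2 fold change of each gene and its standard error from deposited TPM in the 3 comparisons, filled where the adjusted p is under 0.05. Diamonds show the value after scaling by the median of ratios, and the dashed line the median of all genes tested. In si-FGF9 versus NG, MT-ND4L and MT-ATP8 lie near -4.62, and the diamonds of MT-ND4, MT-ND6, MT-CO2, MT-ATP6, MT-ND3 and MT-RNR1 lie above 0.

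In si-FGF9 versus NG, 11 of the 15 tested members fell by limma on deposited TPM and the other 4 were not called, against 57.7% of all genes lower and 11.6% higher. MT-ND4L and MT-ATP8 fell most, by 4.62 each on the log2 scale (SE 0.63 and 0.39, limma adjusted p = 4.73e-05 and 6.26e-06). MT-ND5 fell by 2.48 (SE 0.20, limma adjusted p = 5.48e-06) and MT-CO1 by 1.76 (SE 0.23, limma adjusted p = 3.75e-05). MT-RNR2, MT-ND1, MT-ND2, MT-CO3, MT-CYB, MT-ND4 and MT-ND6 fell by 1.59 to 0.62. MT-CO2, MT-ND3, MT-ATP6 and MT-RNR1 were not called, with log2 fold changes of -0.26, -0.41, -0.11 and 0.18. At the study's criteria 9 members fell, where 42.2% of all genes fell and 5.36% rose. The median log2 fold change was -1.20 over the members and -0.79 over all genes tested. Over the 4709 nuclear genes in the members' range of GC content it was -1.28, and over the 142 most abundant nuclear genes it was 0.55.

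The direction of some members depended on how this overall shift was taken away. With quantile normalization, which put the median of all genes at -0.01, all 15 members had a negative log2 fold change and 11 were called lower. Of the 14639 genes tested, 4705 fell and 4268 rose with this step. Scaling by the median of ratios put the median of all genes at 0.00, with 4750 of all genes lower and 4575 higher. With it, 4 members were lower and 3 higher in si-FGF9, which does not set the members apart from all genes. MT-ND4L at -3.57, MT-ATP8 at -3.57, MT-ND5 at -1.43 and MT-CO1 at -0.71 were the lower ones, and they were also called lower as deposited, with TPM rescaled without the mitochondrial genes, with quantile normalization and with a correction for GC content. MT-CO2 at 0.79, MT-ATP6 at 0.94 and MT-RNR1 at 1.23 were higher with the median of ratios (limma adjusted p = 0.0285, 0.00935 and 0.0182), and MT-ATP6 and MT-RNR1 also with the correction for GC content, but none of the 3 with deposited TPM or quantile normalization. Leaving out si-FGF9 library 3 gave 12 lower calls with deposited TPM, with MT-CO2 and MT-ND3 added and MT-RNR2 lost (limma adjusted p = 0.0664). MT-RNR2 was also lost without NG library 1 or 2 (limma adjusted p = 0.056 and 0.0503). MT-ND6 was lost in 4 of the 6 runs that left out 1 library, at a limma adjusted p of 0.112, 0.0694, 0.0948 and 0.051 without si-FGF9 library 1 or 2 or NG library 1 or 3.

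In HG + OE-FGF9 versus HG, MT-ND2 was the only member called, with a log2 fold change of 1.04 (SE 0.27, limma adjusted p = 0.0326), and 5 members had an unadjusted p under 0.05. Of all genes tested, 4.82% rose and 4.71% fell. MT-ND2 was also called higher with each of the other 4 scalings, but its call was lost in 4 of the 6 runs that left out 1 library, without HG + OE-FGF9 library 1 or 2 or HG library 1 or 3 (limma adjusted p = 0.152, 0.165, 0.115 and 0.0616). MT-RNR1 had a log2 fold change of 1.14 (SE 0.35, limma adjusted p = 0.0617) and met the study's criteria together with MT-ND2, where 2.94% of all genes rose and 2.67% fell. MT-ND6 had a log2 fold change of -0.70 (limma adjusted p = 0.0674), with all HG + OE-FGF9 libraries below all HG libraries. MT-ND1 was at 0.96 (limma adjusted p = 0.0997) and MT-ND3 at 0.82 (limma adjusted p = 0.185), both without overlap between the groups. Without HG library 3, the calls were MT-RNR2 at 1.33 and MT-RNR1 at 1.53, both higher, and MT-ND6 at -0.89.

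The HG + OE-FGF9 libraries also held far more small structural RNA than the others, and the rRNA values are given beside it. Of 20 nuclear RNAs that lack a poly(A) tail, 15 were tested and 13 were higher than in HG, with a median log2 fold change of 3.28. Some of the 15, among them RNU4-1 and SCARNA2, passed the filter of 1 TPM in 3 libraries only through HG + OE-FGF9. This count and median are therefore partly set by the filter, and do not measure how common such a rise is. RN7SK, a nuclear RNA of the transcription machinery, stood at 4759, 4673 and 1462 TPM in HG + OE-FGF9 and between 17.8 and 150 TPM in the other 9 libraries. RNU4-2 was at 1971, 1977 and 516 TPM, and was listed at 0 in all HG libraries. MT-RNR1 was likewise higher in HG + OE-FGF9 libraries 1 and 2 than in library 3. The part of these RNAs in the MT-RNR1 value was not tested.

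The make-up of the mitochondrial mRNA does not depend on a factor common to all genes of a library, because each share is taken within the same 13 genes. Quantile normalization and the correction for GC content are not such factors. Shares and ratios were taken from deposited TPM and not recomputed with them. MT-CO2 made up 17.7% ± 1.00 (SD, n = 3) of the 13-gene sum in NG, 27.1% ± 5.98 in HG, 21.97% ± 0.717 in HG + OE-FGF9, and 34.3% ± 1.38 in si-FGF9. MT-ATP6 made up 5.98% ± 1.03, 8.84% ± 0.976, 11.3% ± 1.00 and 12.8% ± 0.914 in the same order. Both genes held a larger share in every HG and si-FGF9 library than in any NG library, each with an exact permutation p of 0.1. MT-ATP8 made up 15.7%, 18.8% and 19.5% in NG, 8.65%, 5.84% and 16.8% in HG, 6.14%, 6.36% and 11.2% in HG + OE-FGF9, and 1.34%, 1.93% and 1.86% in si-FGF9. MT-ND4L made up 7.71%, 12.3% and 12.1% in NG, 1.49%, 1.08% and 10.3% in HG, 1.83%, 1.80% and 2.41% in HG + OE-FGF9, and 1.06%, 1.08% and 0.831% in si-FGF9. For both, si-FGF9 was below NG in every library and HG overlapped with NG through library 3 (exact permutation p = 0.1 and 0.2).

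**Figure D4:**
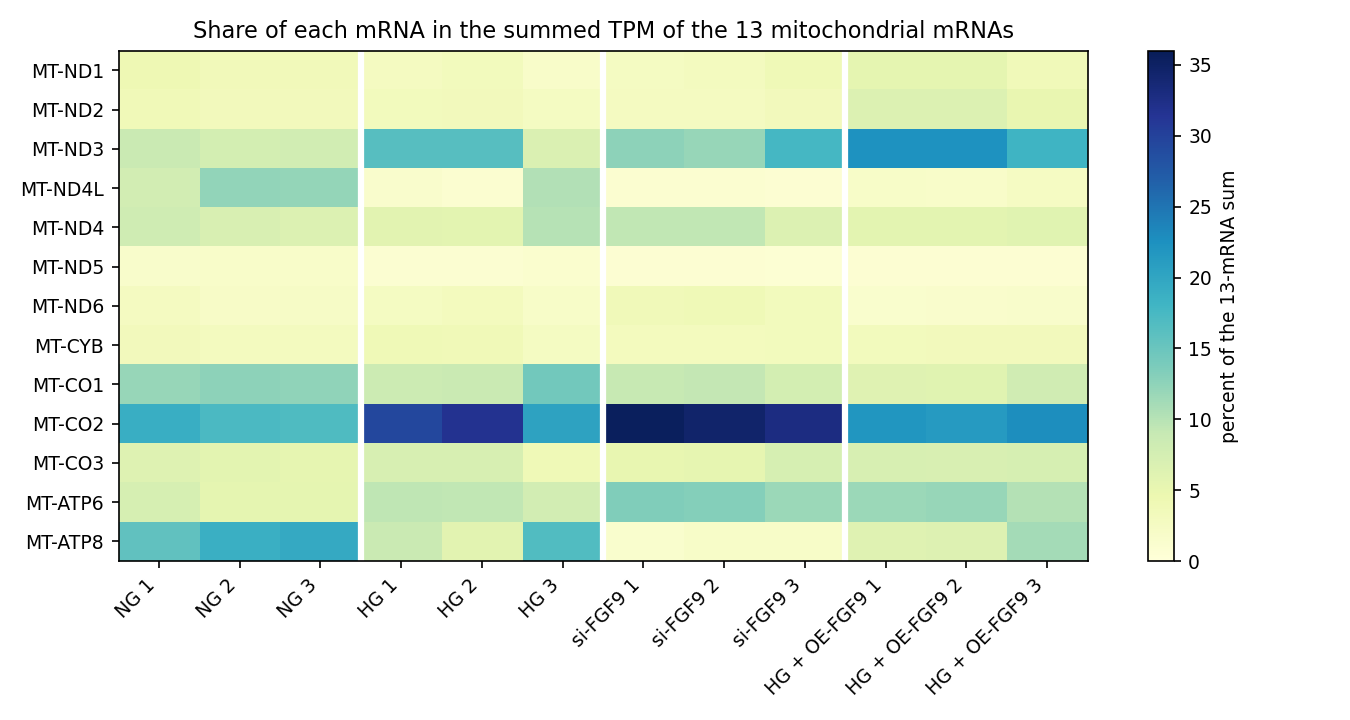
The colour gives the percent that each mRNA contributes to the summed TPM of the 13 mitochondrial mRNAs in each of the 12 libraries. MT-CO2 holds 32.8% to 35.5% in si-FGF9 and 17.0% to 18.9% in NG, and HG library 3 is closer to the NG columns than to HG libraries 1 and 2 for MT-ATP8, MT-ND4L and MT-ND3.

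MT-ND5 made up 1.73% ± 0.0562 of the sum in NG, 0.990% ± 0.124 in HG, 0.791% ± 0.0186 in HG + OE-FGF9, and 0.718% ± 0.0227 in si-FGF9, with no overlap between NG and any other group. MT-ND3 held 7.45% to 8.60% in NG and 18.2% to 22.3% in HG + OE-FGF9. MT-CYB kept a like share in all groups, with 3.03% ± 0.187, 3.41% ± 0.731, 3.09% ± 0.0240 and 3.25% ± 0.0363 in the 4 groups, in the order NG, HG, si-FGF9, HG + OE-FGF9. By complex, the complex I genes held 37.1% ± 0.383 in NG, 33.7% ± 0.575 in HG, 41.8% ± 3.78 in HG + OE-FGF9, and 33.7% ± 1.83 in si-FGF9. The complex IV genes held 35.9% ± 1.20, 43.7% ± 4.52, 35.7% ± 1.96 and 48.7% ± 1.11, and the complex V genes 24.0% ± 0.996, 19.3% ± 4.79, 19.2% ± 1.85 and 14.5% ± 0.811 in the same order. Each share is bound to fall when another rises, since they sum to the whole. Of the complex V genes, MT-ATP8 held 15.7% to 19.5% in NG and 1.34% to 1.93% in si-FGF9. MT-ATP6 rose instead, from a mean of 5.98% to 12.8%. MT-ND4L of complex I held 7.71% to 12.3% in NG and 0.831% to 1.08% in si-FGF9. Shares by complex were not recomputed without MT-ATP8 and MT-ND4L, whose read assignment is uncertain. No direction of a complex in si-FGF9 was therefore read from these shares.

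Genes read from one mRNA did not keep one ratio. The TPM ratio of MT-ATP8 to MT-ATP6 was 2.19, 3.50 and 3.60 in NG, 0.914, 0.625 and 2.18 in HG, 0.522, 0.530 and 1.10 in HG + OE-FGF9, and 0.1004, 0.146 and 0.159 in si-FGF9. The ratio of MT-ND4L to MT-ND4 was 0.960, 1.77 and 1.84 in NG, 0.255, 0.189 and 1.03 in HG, 0.318, 0.313 and 0.402 in HG + OE-FGF9, and 0.113, 0.116 and 0.128 in si-FGF9. Both ratios were lowest in si-FGF9, with log2 differences from NG of -4.51 and -3.62 and no overlap (exact permutation p = 0.1 each). In both pairs the gene with the larger log2 decrease in si-FGF9 is the shorter and the first on the strand. Over the 13 mRNAs the rank correlation of the log2 fold change in si-FGF9 versus NG with gene length was -0.08. This is a description over genes that share libraries, and it cannot speak to a change in MT-ATP8 and MT-ND4L alone. The GC content of the 13 mRNAs spans only 39.6% to 47.7%, and its rank correlation with the same fold change was 0.00. The part of read assignment or of the lengths used for TPM in these ratios was not tested.

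**Figure D5:**
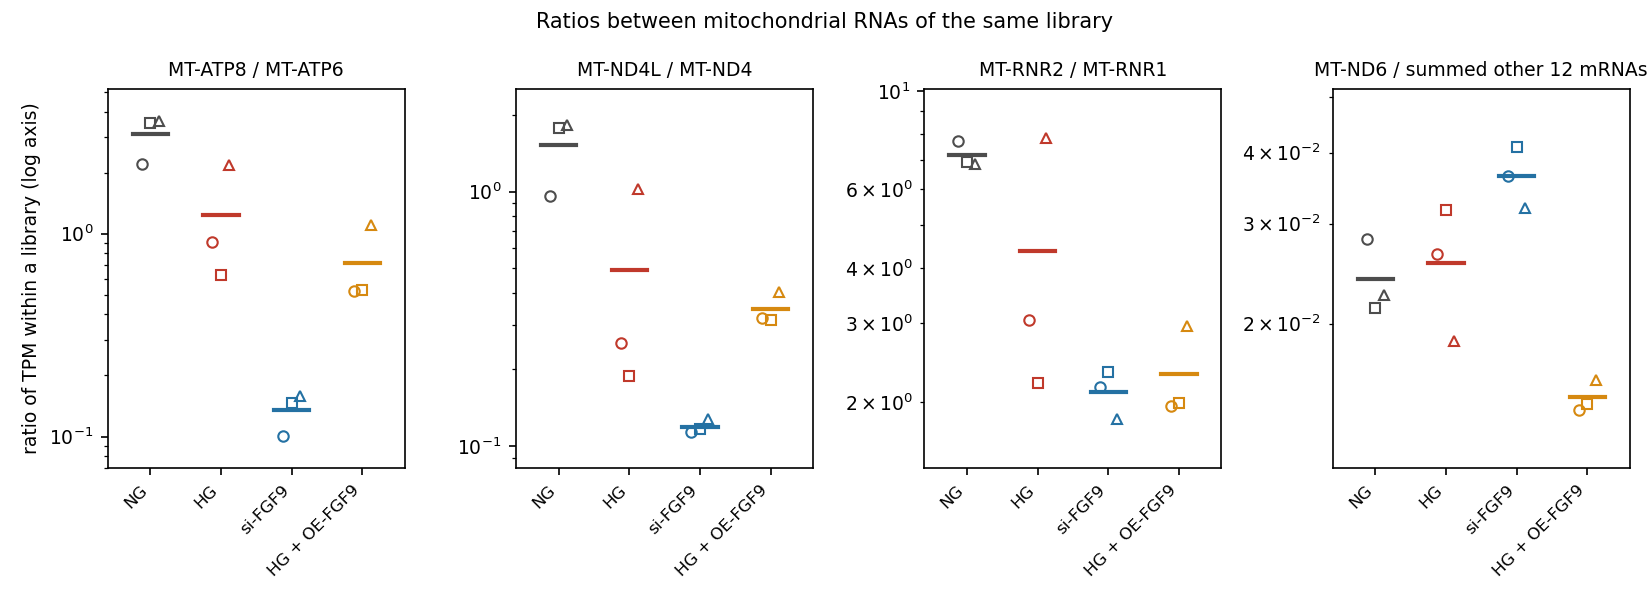
Points show the ratio of TPM within each library on a log axis for MT-ATP8 to MT-ATP6, MT-ND4L to MT-ND4, MT-RNR2 to MT-RNR1 and MT-ND6 to the other 12 mRNAs, with group means as bars. The 3 si-FGF9 libraries lie below all others in the first 2 panels and above all others in the last, and HG library 3 lies apart from HG libraries 1 and 2 in every panel.

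The ratio of MT-RNR2 to MT-RNR1, whose genes lie next to each other on the precursor, was 7.69, 6.93 and 6.84 in NG, 3.05, 2.21 and 7.82 in HG, 1.96, 1.99 and 2.96 in HG + OE-FGF9, and 2.16, 2.33 and 1.83 in si-FGF9. It was lower in si-FGF9 than in NG by 1.77 on the log2 scale, without overlap (exact permutation p = 0.1). The ratio of MT-CO2 to MT-CO1 was 1.43 ± 0.115 in NG, 2.84 ± 1.25 in HG, 3.34 ± 0.407 in HG + OE-FGF9, and 4.04 ± 0.320 in si-FGF9 (SD, n = 3). The ratio of MT-ND6, from the minus strand, to the summed 12 mRNAs of the plus strand was 0.0240 ± 0.00369 in NG, 0.0256 ± 0.00653 in HG, 0.0148 ± 0.000961 in HG + OE-FGF9, and 0.0364 ± 0.00444 in si-FGF9. It was higher in si-FGF9 than in NG by 0.61 on the log2 scale (exact permutation p = 0.1), and by 0.14 when MT-ATP8 and MT-ND4L were left out of the sum. In HG + OE-FGF9 it was lower than in HG by 0.76 (log2 difference -0.76, exact permutation p = 0.1).

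Comparisons of HG and of si-FGF9 with NG share the NG libraries, and HG + OE-FGF9 versus HG shares the HG libraries with the first, so that likeness between their values was not tested. Side by side, MT-ND5 had log2 fold changes of -0.82 in HG and -2.48 in si-FGF9 against NG, and MT-ND4L -2.05 and -4.62.

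Nuclear genes that act on the mitochondrial genome were read beside its transcripts. Of 10 genes of mitochondrial transcription, 2 rose and 5 fell in HG versus NG, and 2 rose and 7 fell in si-FGF9 versus NG. With scaling by the median of ratios or by quantiles 2 were higher and 2 lower in HG, and with the correction for GC content 1 was higher and 0 lower by limma (7 had an unadjusted p under 0.05 as deposited). In si-FGF9 the 3 scalings gave 2 to 3 higher and 3 to 5 lower. TFAM, which packages mitochondrial DNA and starts its transcription, was at 16.5 ± 3.51 TPM in NG, 5.87 ± 2.61 in HG and 2.77 ± 1.12 in si-FGF9 (SD, n = 3), with log2 fold changes of -1.41 and -2.23 (limma adjusted p = 0.00712 and 0.000147). MTERF1, a transcription termination factor, fell by 1.39 and 2.38 (limma adjusted p = 0.00219 and 1.87e-05), and TEFM, an elongation factor, fell by 2.16 in si-FGF9 (limma adjusted p = 4.35e-05). MRPL12, a ribosomal protein that binds the mitochondrial RNA polymerase, rose by 1.14 in HG (limma adjusted p = 0.00604). POLRMT, the polymerase itself, rose by 0.74 in HG + OE-FGF9 versus HG (limma adjusted p = 0.0411).

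Of 22 genes of mitochondrial RNA processing and stability, 2 rose and 12 fell in HG versus NG, and 2 rose and 17 fell in si-FGF9 versus NG. The balance depended on the scaling, with 4 higher and 4 lower in HG and 4 higher and 10 lower in si-FGF9 by the median of ratios. The correction for GC content gave 4 higher and 3 lower in HG and 7 higher and 4 lower in si-FGF9, and quantile normalization 3 higher and 5 lower, and 4 higher and 11 lower. TRMT10C, a subunit of the enzyme that cuts tRNAs at their 5′ ends, fell by 1.34 and 2.61 (limma adjusted p = 0.0164 and 0.000119), and FASTKD5, needed to process mRNAs not flanked by tRNAs, fell by 1.23 and 2.71 (limma adjusted p = 0.00114 and 3.94e-06). ANGEL2, which acts on the ends of mitochondrial RNA, fell by 1.61 and 2.30 (limma adjusted p = 0.00149 and 2.77e-05). PNPT1, an RNA-degrading exonuclease, rose by 1.21 in HG + OE-FGF9 versus HG (limma adjusted p = 0.0328). Of 12 replication genes, 1 rose and 4 fell in HG and 1 rose and 9 fell in si-FGF9, among them RRM2B, POLG2 and MGME1 in both. By the median of ratios 3 were higher and 3 lower in HG and 3 higher and 4 lower in si-FGF9, and by the other 2 scalings 2 to 3 higher and 1 lower in HG and 2 to 3 higher and 4 to 5 lower in si-FGF9. In HG + OE-FGF9 versus HG, TWNK, the replicative helicase, rose by 0.88 (limma adjusted p = 0.0381), and PRIMPOL, a primase-polymerase, fell by 1.59 (limma adjusted p = 0.00848). Of 9 tested nuclear regulators, 6 fell in HG and 8 in si-FGF9, including GABPA and MYC in both. With these 3 scalings 0 to 2 were higher and 2 to 4 lower in HG, and 0 to 2 higher and 3 to 5 lower in si-FGF9. Of the 9, 0 were called in HG + OE-FGF9 versus HG by limma, with 1 at an unadjusted p under 0.05. With the median of ratios 1 was called, higher, and likewise 1 with quantile normalization. The counts from deposited TPM stand beside 40.5% and 57.7% of all genes that fell. Those by the median of ratios stand beside 3323 and 4750 of the 14639 genes tested. With quantile normalization 3284 and 4705 of all genes fell, and with the correction for GC content 2312 and 4537.

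Among the nuclear-encoded subunits of the same complexes more genes rose than fell against NG. Of 74 subunits, 34 rose, 4 fell and 36 were not called in HG versus NG, and 39 rose, 12 fell and 23 were not called in si-FGF9 versus NG, where 8.53% and 11.6% of all genes rose. With scaling by the median of ratios 60 and 66 of the 74 rose, beside 3019 and 4575 of the 14639 genes tested. With the correction for GC content 59 and 61 rose, beside 2083 and 3652 of all genes. Their median log2 fold change was 0.35 in HG and 0.52 in si-FGF9, beside 0.31 and 0.55 over the 142 most abundant nuclear genes. ATP5F1D, a subunit of the ATP synthase, stood at 46.7 ± 8.18 TPM in NG, 133 ± 29.8 in HG and 297 ± 24.5 in si-FGF9, and rose by 1.49 and 2.65 on the log2 scale (limma adjusted p = 0.000694 and 4.64e-06). NDUFA3 of complex I rose by 1.43 in HG (limma adjusted p = 0.00142) and UQCR11 of complex III by 2.16 in si-FGF9 (limma adjusted p = 2.9e-06). NDUFA5 fell by 1.24 in HG (limma adjusted p = 0.0164) and NDUFS1 by 2.47 in si-FGF9 (limma adjusted p = 1.74e-05), both of complex I. In HG + OE-FGF9 versus HG 4 of the 74 subunits rose, where 4.82% of all genes rose, which does not set the subunits apart. The 4 included NDUFB9, NDUFAB1 and NDUFB10 of complex I, which rose by 0.82, 0.61 and 0.61 (limma adjusted p = 0.00453, 0.0163 and 0.026).

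Nuclear copies of mitochondrial genes can share reads with the originals, which makes both uncertain. Of 404 such pseudogenes in the table, 9 had a mean of at least 1 TPM. MTATP6P1 was the highest, at 580, 594 and 649 TPM in NG, 959, 1270 and 869 in HG, 1361, 1391 and 1293 in HG + OE-FGF9, and 346, 406 and 689 in si-FGF9, in the same order of groups as MT-ATP6. MTND1P23 lay between 19.5 and 117 TPM. MTCO1P12 was at 73.0, 53.0 and 64.0 TPM in NG and 3.67, 3.99 and 4.46 in si-FGF9. Over all libraries MTATP6P1 came to 0.727% of the summed TPM of the 37 genes.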

How the data were processed

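Total RNA of the 12 HK2 libraries was extracted with TRIzol and sequenced on an Illumina HiSeq3000. The authors deposited TPM for 62703 Ensembl gene identifiers, scaled to 1000000 per library and given to 2 decimals. The submitters' processing notes list Bowtie 0.12.2 and the mouse build mm8 with no role, although the identifiers are human, and the quantification tool and annotation are not given in the sources used here. Depth is unknown, so no count test was run, although the plan foresaw one for counts.

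Symbols, positions, lengths and GC content were taken from GENCODE release 29 on GRCh38. The 14639 genes that reached 1 TPM in at least 3 libraries entered a limma model (limma 3.58.1, R 4.3.3), fitted to log2(TPM + 1) over all 12 libraries, with a variance trend and a term for the group alone. P-values were adjusted by Benjamini-Hochberg over all genes tested and called under 0.05, and the study's criteria were counted beside. The pseudocount understates changes of low genes. Sums, shares and ratios were compared by exact two-sided permutation on the log2 scale, which cannot go below 0.1. The fit was tested on simulated data with independent noise and few genes changed, equally up and down. That test does not cover libraries that deviate as a whole or a shift of many genes in a common direction, as seen here. For the GC correction, a spline with 5 degrees of freedom on GC content was removed library by library.

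The members and lists were chosen with earlier results of these data known. All 13 mRNAs and both rRNAs are named, from each nuclear list the 3 called genes with the largest change in each comparison, and the 3 highest pseudogenes. The correction for GC content, the sums without MT-ATP8 and MT-ND4L, and TPM rescaled without small structural RNA were added after the data were seen.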

Additional observations from a re-analysis of the deposited data

How the results depend on the processing

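Depth is unknown for these TPM values, and 1 library decided many calls. With single libraries left out, the called members numbered 1 to 8 in HG versus NG (4 with all libraries) and 9 to 12 in si-FGF9 versus NG (11). The same step gave 0 to 3 in HG + OE-FGF9 versus HG (1), where the nuclear lists gave 0 to 24 called genes (8). Calls over all genes were not counted in these runs, so that the counts do not set the members apart. In HG versus NG, 1 member was called with no filter on low values and 1 at the study's criteria, and 2 with the median of ratios, with the 6 libraries alone and without the variance trend. In si-FGF9 versus NG, 7 were called with the median of ratios (3 higher) and 6 with the correction for GC content (2 higher). Of all genes, 4750 fell and 4575 rose with the first, and 4537 fell and 3652 rose with the second. In HG + OE-FGF9 versus HG, 0 were called by limma with no filter or the 6 libraries alone (5 and 6 at an unadjusted p under 0.05), and 2 each at the study's criteria, under the correction for GC content and under quantile normalization. The nuclear lists held 24 called genes in place of 70 in HG versus NG and 60 in place of 97 in si-FGF9 versus NG at the study's criteria, and in HG + OE-FGF9 versus HG 5 with no filter, 0 with 6 libraries and 2 at the study's criteria. Log2 fold changes turned to 0.64 for MT-ND4 in HG versus NG with the correction for GC content, and in si-FGF9 versus NG to 0.43 and 0.69 for MT-ND6, 0.0445 and 0.12 for MT-ND4 and 0.94 and 1.02 for MT-ATP6 (median of ratios, then the correction for GC content) and 0.79 for MT-CO2 (median of ratios). The summed 13 mRNAs moved to 0.52, -0.16 and 0.20 in the 3 comparisons with the median of ratios, all 37 genes to 0.48 and -0.15 in the first 2, and the rRNAs to -0.17 in si-FGF9 versus NG, or -1.34 with TPM rescaled without mitochondrial genes. Without the overlapping pairs, and then without MT-ATP8 and MT-ND4L alone, the 13-mRNA sum gave 0.23 and 0.24 in HG versus NG and -0.82 and -0.76 in si-FGF9 versus NG, all 37 genes 0.15 and 0.17, and -0.88 and -0.82, and the MT-ND6 ratio 0.21 and 0.14 in si-FGF9 versus NG. The cause of these changes was not tested beyond the construction of each alternative. With the replicate number as a block, 3, 11 and 1 members were called, all lower. Of all genes, 5680, 8258 and 435 fell and 1111, 1631 and 534 rose with this block, in the same order of comparisons. In HG versus NG these were MT-ND5, MT-ND4L and MT-ATP8, with MT-CO2 and MT-ATP6 lost (limma adjusted p = 0.063 and 0.0575). For HG + OE-FGF9 against HG the call was MT-CO1 (0.0463), with MT-ND2 lost (0.0649). Deviations of same-numbered libraries correlated at -0.44 to 0.25, and 3 of 18 pairs were over 0.1. Those of libraries with other numbers correlated at -0.34 to 0.46, and 13 of 36 pairs were over 0.1. These values show no pairing by number, but with 3 libraries per group they cannot exclude it.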
